A study of Mus musculus with 16 samples.

Results

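Kidney cortex of male wild-type C57BL/6J mice, an inbred strain in wide laboratory use, was compared between animals that had run for 1 week and animals that had stayed sedentary. The exercised animals ran on a forced treadmill at 70% of capacity for 40 min a session over 1 week, and the sedentary group carried no training. Polyadenylated RNA was sequenced in 4 libraries at 1 wk and 4 from sedentary mice, 8 of the 16 libraries of the series. The rest were 4 each labelled 24 h (1 day) and 2 wk (2 weeks) of the same running. Of 55414 genes in the deposited table, the 16126 that passed a filter on low counts were tested. The age of the mice, the number of sessions a week and the time from the last run to tissue freezing are not stated by the labels. Nor do the labels say whether 24 h means running within 1 day or tissue taken 24 h after a run. Treadmill running is a model in which the animal cannot choose its pace, so training and handling come together.

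The cortex holds glomeruli, where a capillary tuft filters blood, and the proximal tubule, which takes back most of the filtered salt, glucose and phosphate. Further along, the distal convoluted tubule and the collecting duct set the final sodium output under hormonal control. A dense network of peritubular capillaries lines the tubules, and resident macrophages and dendritic cells lie between them. In other organs, above all muscle, repeated running is known for capillary growth through vascular endothelial growth factor, and for nitric oxide release from the endothelium.

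After 1 wk the stress-inducible gene Gadd45g was the gene with the smallest p and stood about 2.11-fold above the sedentary level. General markers of blood vessel endothelium were lower as a group, with 16 of 20 genes lower at an unadjusted p under 0.05 and a median log2 fold change of −0.37. That number was 8 without the 2nd or the 4th 1 wk library. Over all genes tested, 3.72% were lower and 2.33% higher at that p. Among 10 glomerular endothelial genes 5 were negative, with a median of −0.00, or −0.13 without the 1st 1 wk library. The difference between the general and the glomerular list was not tested. Log2 fold changes were also negative in 16 of 18 macrophage genes and 32 of 35 interferon response genes, of which 4 and 6 had an unadjusted p under 0.05, and the 3rd 1 wk library did not share this. Of 24 cholesterol synthesis genes 21 were positive and 7 were higher at an unadjusted p under 0.05, a number that was 2 without the 1st 1 wk library. Medians of 3 distal tubule and collecting duct lists were positive, but 1 of 16, 2 of 12 and 3 of 14 genes were higher at that p, and each of these counts was 0 with some single library left out. Lists of the proximal tubule and the thick ascending limb had medians near 0.

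No gene passed an adjusted p of 0.05 by edgeR's quasi-likelihood test, so 0% of genes tested were called, and the smallest adjusted p was 0.263 for Gadd45g. At an unadjusted p under 0.05 there were 975 genes (6.05%), where 806 would be expected if no gene differed. Of these, 600 were lower at 1 wk (3.72% of genes tested) and 375 were higher (2.33%). The levels of the groups did not overlap for 405 genes that were lower (2.51%) and 275 that were higher (1.71%). With 4 libraries against 4, a gene without any difference would show no overlap, in either direction, with a probability of 0.0286 by exact permutation. No overlap is therefore not a call of a single gene. DESeq2 called 15 genes and limma's voom with quality weights called 6. These shares are the background against which every list below is read, and over all genes the median log2 fold change was 0.00 with 48.9% negative. The lists were chosen with earlier results of these data known, so counts above these shares are not independent support.

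Whether every library stands for its own animal is not said in the labels. The p-values therefore measure the spread between libraries, part of which may be technical. Totals ran from 40785799 to 49314783 counts at 1 wk and from 45854329 to 56957702 in sedentary mice, and log2 fold changes had a median SE of 0.144. The 1 wk libraries were spread widely: on the first principal component of log2 CPM (counts scaled to the library total), which held 17.6% of the variance over 16 libraries, the 3rd lay at 30.4 and the 4th at −26.0, close to the ends of the whole range of −32.2 to 32.6. Without the 4th 1 wk library, 881 genes were lower and 908 higher at an unadjusted p under 0.05, and without the 4th sedentary library 337 were lower and 268 higher. The letter in the sample titles that differs between exercised and sedentary libraries is not explained, so exercise and its meaning cannot be told apart. Markers of cortex were abundant: Slc34a1, the proximal tubule phosphate carrier, was at 5900 to 7710 CPM in sedentary mice and 6410 to 7740 CPM at 1 wk.

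**Figure D1:**
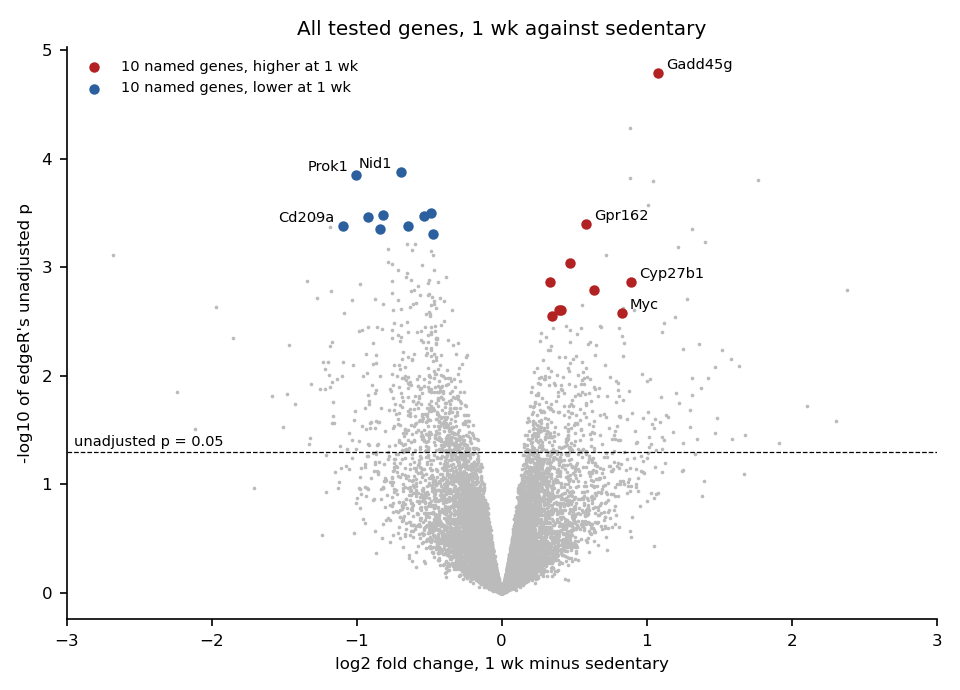
Every one of the 16126 genes tested, with the log2 fold change (1 wk minus sedentary) on the horizontal axis and the −log10 of edgeR's unadjusted p on the vertical axis, the dashed line marking the unadjusted threshold of 0.05. Red and blue points are the 10 named genes of smallest p in each direction, and Gadd45g stands at the top at a log2 fold change of 1.08.

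Gadd45g, which encodes a small nuclear protein induced by stress and growth arrest, lies on chromosome 13 (GRCm38, 51846678 to 51848468, plus strand). Its level was 21.7, 24.3, 25.2 and 24.0 CPM in the 4 sedentary libraries and 34.5, 59.4, 53.6 and 53.2 CPM in the 4 libraries at 1 wk. All 1 wk libraries were above all sedentary ones, with the 1st the nearest to them. The log2 fold change was 1.08 ± 0.19 (SE), with an edgeR adjusted p of 0.263. The adjusted p was 0.000347 by DESeq2 and 0.0254 by voom, and 0.0368 by edgeR without the 1st 1 wk library. At 24 h the levels were 18.2 to 35.9 CPM and at 2 wk 21.2 to 33.9 CPM, so 1 of 4 libraries at 24 h lay above the lowest library at 1 wk and none did at 2 wk. Set directly against these durations, 1 wk was higher by 0.87 ± 0.19 (edgeR adjusted p = 0.216) and 0.99 ± 0.19 (edgeR adjusted p = 0.339) on the log2 scale.

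Myc, a transcription factor of growth and one of the immediate early genes, was at 4.97, 5.65, 5.06 and 5.07 CPM in sedentary mice and 4.26, 9.43, 10.3 and 12.8 CPM at 1 wk. The 1st 1 wk library was below all sedentary libraries and the other 3 were well above them, so the groups overlapped. The log2 fold change was 0.83 ± 0.24, with an unadjusted p of 0.00266 by edgeR. At 24 h and 2 wk it was 0.07 and 0.04. Classical immediate early genes did not share this pattern: Egr1 was at −0.62 ± 0.43, Fos at −0.35 ± 0.48 and Junb at −0.11 ± 0.13, and 12 of 18 tested genes of that list were negative with 1 lower (Klf6, −0.34 ± 0.15) and 2 higher at an unadjusted p under 0.05.

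Cyp27b1 encodes the kidney enzyme that makes active vitamin D (chromosome 10, 127048250 to 127053006, plus strand). Sedentary libraries held 4.69, 6.83, 5.21 and 6.18 CPM, and 1 wk libraries 7.34, 8.73, 12.8 and 13.6 CPM. The groups did not overlap, and the log2 fold change was 0.89 ± 0.24. It was 0.97 at 24 h and −0.17 at 2 wk. The difference between 1 wk and 2 wk was 1.06 ± 0.24, with an edgeR adjusted p of 0.868 over all genes.

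The other 7 named genes that were higher had smaller differences. They were the orphan receptor gene Gpr162 (0.58 ± 0.14), Il17re, a subunit of the receptor for interleukin 17C (0.47 ± 0.12), the homeobox gene Emx1 (0.33 ± 0.09), Lrtm2 (0.63 ± 0.17), the RNA-binding protein gene Rbm38 (0.40 ± 0.11), the cytokine signal transducer gene Stat5a (0.41 ± 0.12) and the solute carrier gene Slc35e4 (0.35 ± 0.10). Groups did not overlap in any of them except Lrtm2, and edgeR's adjusted p was above 0.05 for all 7. Of these, DESeq2 called Gpr162 (adjusted p = 0.0406). Log2 fold changes of the 7 genes at 24 h ran from 0.06 (Stat5a) to 0.47 (Il17re), and those at 2 wk from 0.25 (Emx1) to 0.55 (Lrtm2 and Il17re). All durations were set against the same sedentary libraries.

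Nid1, which encodes nidogen 1, a linker of laminin and collagen IV in basement membranes, had the smallest p among lower genes (chromosome 13, 13437551 to 13512269, plus strand). Its levels were 23.6, 23.6, 21.8 and 31.3 CPM in sedentary mice and 15.8, 13.6, 15.6 and 17 CPM at 1 wk. The groups were well apart. The log2 fold change was −0.69 ± 0.15, with adjusted p-values of 0.369 by edgeR, 0.0217 by DESeq2 and 0.0404 by voom. At 24 h the log2 fold change was −0.10 and at 2 wk −0.19. Other basement membrane genes did not move alike: of 14, 9 were negative, the median was −0.04, and 3 were lower at an unadjusted p under 0.05, namely Nid1, the heparan sulfate core protein gene Hspg2 (−0.29 ± 0.13) and the collagen-binding protein gene Sparc (−0.30 ± 0.14). That number was 1 without the 1st or the 4th sedentary library or the 2nd 1 wk library.

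Prok1, which encodes prokineticin 1, a secreted factor that acts on endothelial cells of endocrine organs, was at 21.5, 24.7, 23.6 and 23.4 CPM in sedentary mice and at 16.2, 9.45, 9.54 and 11.3 CPM at 1 wk. Every 1 wk library was below every sedentary one, the 1st again being the nearest. The log2 fold change was −1.0 ± 0.21, with adjusted p-values of 0.369 by edgeR, 0.0152 by DESeq2 and 0.0254 by voom. The 24 h value was −0.60 and the 2 wk value −0.11. Against 2 wk the difference was −0.89 ± 0.21 (edgeR adjusted p = 0.868).

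Of the other 8 named lower genes, 4 are in a gene list used here. Ets1, a transcription factor of endothelium and lymphocytes that is in no list, was at 12.7 to 16.8 CPM in sedentary mice and 10.1 to 12.2 CPM at 1 wk, a log2 fold change of −0.48 ± 0.11. Esm1, a secreted proteoglycan of endothelial tip cells, was at 22.4 to 26.9 CPM and 13.2 to 19.6 CPM (−0.64 ± 0.15), and Sox18, an endothelial transcription factor, at 11.4 to 13.5 CPM and 8.47 to 8.88 CPM (−0.48 ± 0.11). The listed leukocyte genes were Spn, the sialophorin of leukocyte surfaces (−0.82 ± 0.19), and Cd209a, a dendritic cell lectin (−1.09 ± 0.26). Fgl2, an immunoregulatory fibrinogen-like protein (−0.92 ± 0.21), Itga9, an integrin chain (−0.54 ± 0.12), and Kctd12b (−0.84 ± 0.20) completed the set. None of the 8 overlapped between the groups, their adjusted p by edgeR ran from 0.378 to 0.396, and DESeq2 called 6 of them (Cd209a, Ets1, Fgl2, Itga9, Kctd12b and Spn).

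**Figure D2:**
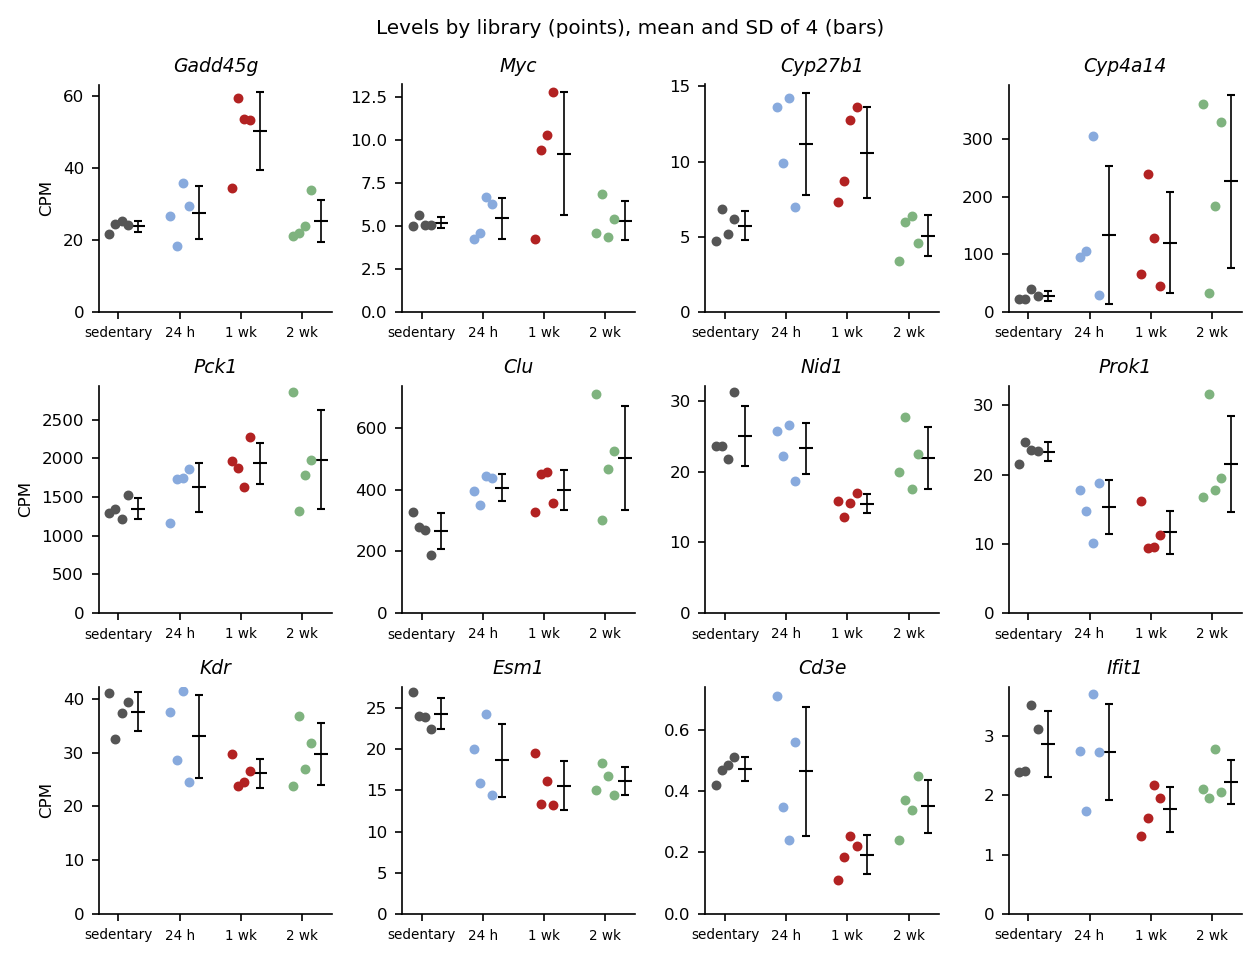
Levels in CPM (vertical axis, from 0) of 12 genes in each of the 4 libraries of the 4 groups (points), with the mean and SD of the 4 beside them (bars). Gadd45g stands at 34.5 to 59.4 CPM at 1 wk against 21.7 to 25.2 CPM in sedentary mice, and Nid1 at 13.6 to 17 against 21.8 to 31.3 CPM.

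Endothelial genes were lower across nearly the whole list. Of 20 general markers, 19 had a negative log2 fold change, 16 were lower at an unadjusted p under 0.05, against 3.72% of all genes, and 10 had no overlap between the groups, against 2.51%. Markers of 1 cell type in the same libraries vary together, so these counts are not independent observations. The list was also chosen with earlier results of these data known. The mean of the list, as log2 CPM relative to the sedentary mean, was 0.09, −0.16, 0.03 and 0.04 in sedentary libraries and −0.23, −0.41, −0.23 and −0.47 at 1 wk, so all 4 exercised libraries were below all sedentary ones. The summed level of the 20 genes was 630 to 739 CPM in sedentary mice and 489 to 597 CPM at 1 wk. The median log2 fold change of −0.37 ranged from −0.41 to −0.32 when single libraries were left out. The number of genes lower at an unadjusted p under 0.05 was 9 without the 1st sedentary library and 8 without the 2nd or the 4th 1 wk library.

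Kdr, the main receptor of vascular endothelial growth factor A, was at 41.0, 32.6, 37.4 and 39.4 CPM in sedentary mice and 29.8, 23.7, 24.5 and 26.6 CPM at 1 wk. No 1 wk library reached the lowest sedentary one. The log2 fold change was −0.53 ± 0.15 (unadjusted p = 0.00272 by edgeR). Emcn, the endothelial surface mucin endomucin, was at 47.8 to 58.9 CPM against 31.6 to 47.3 CPM (−0.45 ± 0.14), and Pecam1, the adhesion molecule CD31, at 36.0 to 48.5 CPM against 29.3 to 35.3 CPM (−0.35 ± 0.14), both without overlap. The range of the list ran from −0.53 for Clec14a to 0.17 for Cldn5, a tight junction gene of endothelium and the only one of the 20 that was positive. Plvap, the diaphragm protein of fenestrated capillaries and the most abundant gene of the list, was at 133 CPM against 174 CPM on average (−0.39 ± 0.15).

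Of 10 genes that mark the glomerular part of the endothelium, 5 were negative, the median was −0.00 and 1 was lower at an unadjusted p under 0.05. That gene was Ehd3, a membrane trafficking protein, at 24.8 to 27.3 CPM in sedentary mice and 17.9 to 24.0 CPM at 1 wk (−0.35 ± 0.12). The median was −0.13 without the 1st 1 wk library, −0.10 without the 3rd and −0.13 among genes of at least 1 CPM. Against 24 h, 9 of 10 were negative with a median of −0.20, and 0 had an unadjusted p under 0.05. Smad6 (−0.13 ± 0.10) and Fabp4 (−0.26 ± 0.21) were next by p. In the lymphatic list, 3 of 6 tested genes were negative, and the receptor gene Flt4 was the 1 gene with an unadjusted p under 0.05 (−0.39 ± 0.18), ahead of Pdpn (0.15 ± 0.15) and Reln (−0.09 ± 0.20). No lymphatic gene had such a p without the 1st or the 4th sedentary or the 1st, 2nd or 3rd 1 wk library. Podocyte genes, which share the glomerulus, had a median of −0.08, with 9 of 14 negative, as in Kirrel (−0.21 ± 0.14) and Ptpro (−0.19 ± 0.21), and 5 positive. At an unadjusted p under 0.05, 0 of the 14 podocyte genes were lower and 1 was higher.

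Ligands of vascular growth had log2 fold changes of both signs. Vegfa, the ligand made by podocytes and tubule cells, was at 101, 95.7, 99.6 and 106 CPM in sedentary mice and at 100, 116, 92.8 and 112 CPM at 1 wk. The groups overlapped fully, and the log2 fold change was 0.07 ± 0.10. Vegfb was at 0.20 ± 0.11, whereas Vegfc was at −0.21 ± 0.13, the apelin gene Apln at −0.26 ± 0.15 and Angpt2 at −0.36 ± 0.25. Of the receptors, Nrp2, a co-receptor, was at 10.4 to 12.1 CPM against 5.58 to 8.76 CPM (−0.66 ± 0.16), Aplnr, the apelin receptor, at 3.38 to 5.09 against 1.77 to 3.02 CPM (−0.76 ± 0.20), and Flt1 at −0.41 ± 0.15. Of the 22 angiogenic genes, 18 were negative and the median was −0.21. At an unadjusted p under 0.05, 8 were lower, against 3.72% of all genes. The difference between ligands and receptors itself was not tested. Several of these receptors are also in the endothelial list (Kdr, Flt1, Tek and Tie1), so the lists are not separate evidence.

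Genes of vascular tone were negative in 16 of 16 cases, with a median of −0.29. Of these, 4 were lower at an unadjusted p under 0.05, against 3.72% of all genes. These were Ednrb, an endothelin receptor, at 6.25 to 7.23 CPM against 4.47 to 5.75 CPM (−0.47 ± 0.16), Gucy1a1, a subunit of the nitric oxide sensor guanylate cyclase (−0.54 ± 0.19), Thbd, the anticoagulant receptor thrombomodulin (−0.42 ± 0.15), and the flow-induced transcription factor gene Klf2 (−0.32 ± 0.12). Nos3, the endothelial nitric oxide synthase, was at 5.66, 3.89, 5.56 and 5.10 CPM in sedentary mice and at 4.83, 4.51, 4.16 and 4.43 CPM at 1 wk. Its groups overlapped, and its log2 fold change was −0.17 ± 0.13. The list mean lay between −0.37 and −0.23 at 1 wk and between −0.11 and 0.15 in sedentary libraries, without overlap. With only the 8 compared libraries in the fit, 7 of the 16 had an unadjusted p under 0.05.

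**Figure D3:**
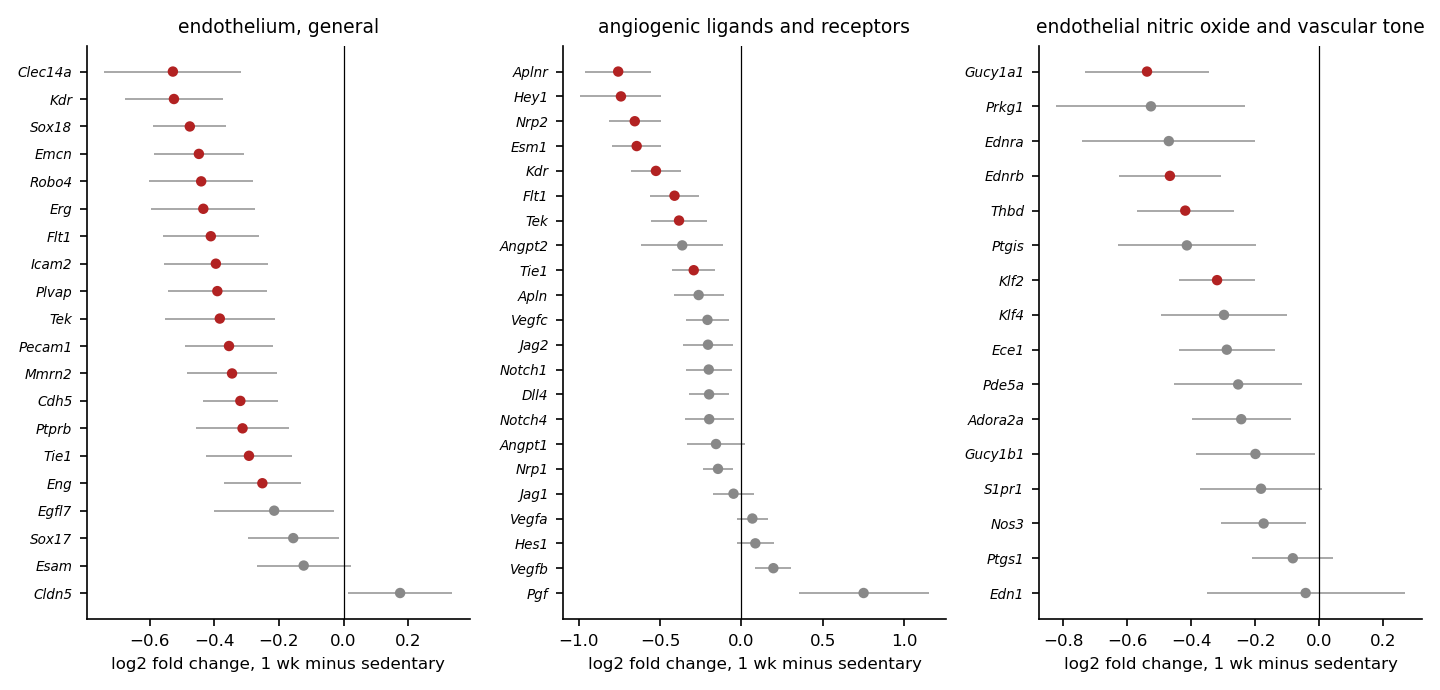
Log2 fold change (1 wk minus sedentary, horizontal axis) with its SE for each tested gene of 3 vascular lists, sorted by value. Red points had an unadjusted p under 0.05 by edgeR and grey points did not, the vertical line marking no difference. Nearly all points of the left panel lie below 0, while Vegfa, Vegfb and Pgf in the middle panel lie above it.

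Of 14 genes of smooth muscle, mesangium and pericytes, 13 were negative with a median of −0.15. At an unadjusted p under 0.05, 4 were lower, against 3.72% of all genes. Lmod1, an actin nucleator of smooth muscle, was at 2.45 to 3.29 CPM against 1.22 to 2.12 CPM (−0.70 ± 0.20), Itga8, an integrin chain of mesangial cells, at 5.07 to 6.55 against 3.97 to 4.59 CPM (−0.43 ± 0.14), and Mcam, an adhesion molecule of vessel walls, at −0.31 ± 0.12. The median was −0.07 without the 1st sedentary library and −0.28 without the 3rd 1 wk library, and 2 genes had an unadjusted p under 0.05 without the 4th sedentary library. Fibroblast and matrix genes had 9 of 11 negative with a median of −0.10. Their smallest p-values belonged to Pdgfra, the receptor that marks fibroblasts (−0.44 ± 0.19), and the fibronectin gene Fn1 (−0.37 ± 0.16), and both overlapped between the groups. The median was −0.39 without the 3rd, −0.24 without the 2nd and −0.03 without the 1st 1 wk library, −0.17 and −0.18 without the 1st and the 3rd sedentary library, and −0.27 among genes of at least 1 CPM. None had an unadjusted p under 0.05 without the 4th sedentary or the 2nd 1 wk library.

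In bulk tissue, fewer cells of a type and less RNA per cell cannot be told apart, and this holds for each cell type list here. At 24 h the endothelial median was −0.02, with 0 of 20 genes lower at an unadjusted p under 0.05, against 4.43% of all genes. At 2 wk it was −0.27, with 6 of 20 against 3.24%. Compared directly, 1 wk was below 24 h by a median of −0.33, with 11 of 20 genes lower at an unadjusted p under 0.05 against 4.72% of all genes. It was below 2 wk by −0.11, with 2 of 20 against 2.86%. Over all genes, edgeR called 0 of 16126 genes (0%) between 1 wk and 24 h and 0 (0%) between 1 wk and 2 wk. An unadjusted p under 0.05 was seen for 1153 and 738 genes. DESeq2 called 59 and 4, and voom 17 and 1.

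Most leukocyte lists had negative medians, while those of neutrophils and mast cells (3 of 13 genes tested, all 3 positive, 0.27) and of plasma cells (6 of 10 positive, 0.11) were positive. The first of these was 0.02 without the 1st and 0.85 without the 4th sedentary library, and 0.42 without the 4th 1 wk library. Of 18 macrophage genes, 16 were negative with a median of −0.34. Those lower at an unadjusted p under 0.05 numbered 4, against 3.72% of all genes. The list mean at 1 wk was −0.50, −0.40, 0.02 and −0.50, against −0.13 to 0.06 in sedentary libraries, so the 3rd library lay within the sedentary range and the other 3 below it. Summed over the list, levels were 2000 to 2150 CPM in sedentary mice and 1790 to 2090 CPM at 1 wk. Without the 3rd library, 10 of 18 had an unadjusted p under 0.05 and the median was −0.52. Without the 1st 1 wk library the median was −0.21. The number was 7 without the 2nd sedentary library, 1 without the 3rd sedentary library and 2 without the 4th 1 wk library.

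Mrc1, the mannose receptor of resident macrophages, was at 1.10, 1.22, 1.83 and 1.66 CPM in sedentary mice and 0.754, 1.03, 0.944 and 0.887 CPM at 1 wk. The groups did not overlap (−0.68 ± 0.26). Itgam, the integrin CD11b, was at 0.443 to 0.725 CPM against 0.262 to 0.310 CPM (−0.94 ± 0.37), and C1qc, a chain of complement C1q, at 12.8 to 15.8 against 8.57 to 14.1 CPM (−0.44 ± 0.19). Adgre1, the macrophage marker F4/80, was at 3.38, 2.80, 3.48 and 2.62 CPM in sedentary mice and 1.77, 2.20, 3.42 and 2.44 CPM at 1 wk. It overlapped (−0.33 ± 0.26), and the 3rd 1 wk library lay within the sedentary range.

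Among monocyte genes, 8 of 9 were negative (median −0.44), with the smallest p-values in Spn, the chemokine receptor gene Ccr2 (−0.70 ± 0.24) and the Fc receptor gene Fcgr4 (−0.64 ± 0.24). Chil3, a chitinase-like protein of mouse myeloid cells, was the 1 positive gene, at 0.133 to 0.190 CPM in sedentary mice and 0.266 to 0.459 CPM at 1 wk. It did not overlap between the groups (1.15 ± 0.47, unadjusted p = 0.0237 by edgeR). Without the 2nd sedentary or the 3rd or 4th 1 wk library, no monocyte gene was higher at an unadjusted p under 0.05. The list's median was −0.22 and −0.23 without the 1st and the 2nd 1 wk library and −0.26 without the 3rd sedentary one. Dendritic cell genes had 10 of 13 negative with a median of −0.50, led by Cd209a, the lectin gene Clec4a2 (−0.87 ± 0.32) and the integrin gene Itgax (−0.57 ± 0.23). All 4 list means at 1 wk (−0.49 to −0.23) were at or below the lowest sedentary library (−0.23), but the median was −0.10 when genes under 1 CPM were left out and −0.32 without the 4th sedentary library. The MHC class II genes, which present antigen to helper T cells, were negative in 11 of 12 cases (median −0.24). At an unadjusted p under 0.05, 4 of the 12 were lower, against 3.72% of all genes. H2-Ab1 was at 125 to 164 CPM against 97.0 to 146 CPM (−0.39 ± 0.14), H2-Aa at −0.47 ± 0.17 and H2-Eb1 at −0.42 ± 0.17, and in all 3 only the 3rd 1 wk library reached into the sedentary range. Without that library the list's median was −0.38 and 7 of 12 genes rather than 4 had an unadjusted p under 0.05. This number was 2 without the 1st or 3rd sedentary or the 2nd or 4th 1 wk library.

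Genes of MHC class I were negative in 12 of 14 cases (median −0.15), H2-Q4 having the smallest p (−0.45 ± 0.15, 21.1 to 25.9 CPM against 14.5 to 20.4 CPM), ahead of H2-D1 (−0.17 ± 0.09) and the transactivator gene Nlrc5 (−0.75 ± 0.42). H2 genes resemble each other closely, and how reads shared between copies were counted is not given, so single H2 values are uncertain. In this list 5 genes rather than 1 had an unadjusted p under 0.05 without the 3rd 1 wk library. T cell genes were rare. Cd3e, a signalling subunit of the T cell receptor, was at 0.418, 0.467, 0.485 and 0.512 CPM in sedentary mice and 0.111, 0.185, 0.255 and 0.222 CPM at 1 wk, without overlap (−1.28 ± 0.35), and 14 of 17 genes of the list were negative (median −0.28, and −0.45 without the 3rd 1 wk library). Tcf7 (−0.39 ± 0.23) and Cd2 (−0.54 ± 0.33) followed it. Natural killer genes had 6 of 8 negative (median −0.56), among them Il2rb (−0.92 ± 0.34), Gzma (−0.96 ± 0.41) and Nkg7 (−0.71 ± 0.34), and none had an unadjusted p under 0.05 without the 4th sedentary library. B cell genes had 7 of 8 negative with none at an unadjusted p under 0.05, and their median was −0.38, or −0.17 among genes of at least 1 CPM.

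Interferons are antiviral cytokines that switch on a set of effector genes through the factor ISGF3, which binds the interferon-stimulated response element. Of 35 genes of the set, 32 were negative with a median of −0.22. Those lower at an unadjusted p under 0.05 numbered 6, against 3.72% of all genes. List means at 1 wk were −0.55, −0.37, 0.12 and −0.26, and in sedentary mice −0.04, −0.14, 0.02 and 0.16. Without the 3rd 1 wk library 14 genes had an unadjusted p under 0.05 and the median was −0.42, without the 1st it was −0.14, and without the 4th sedentary library 2 genes had such a p.

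The upstream windows of 4 negative genes of this set, of which Ifit1 and Rsad2 had an unadjusted p under 0.05, are shown because they carry matches to the core of that element, written GAAANNGAAA with both strands searched. Sequences are from RefSeq (GRCm38.p6), 5′ to 3′ along the gene's strand, and capitals mark the matches, here all read on the opposite strand. The windows are chr19:34640765-34640833 (plus strand) for Ifit1, chr12:26456543-26456592 (minus) for Rsad2, chr19:34583353-34583436 (plus) for Ifit3 and chr3:142530263-142530312 (plus) for Gbp7.
Ifit1: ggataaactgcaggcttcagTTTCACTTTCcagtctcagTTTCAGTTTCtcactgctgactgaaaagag
Rsad2: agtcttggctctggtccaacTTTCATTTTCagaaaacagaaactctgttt
Ifit3: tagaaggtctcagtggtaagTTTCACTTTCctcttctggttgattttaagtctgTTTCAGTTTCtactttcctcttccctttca
Gbp7: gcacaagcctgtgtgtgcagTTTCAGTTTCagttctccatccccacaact

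Within the 250 bases upstream of the start, 14 of the 25 interferon genes that had a window (56.0%) held such a match, against 936 of 27025 genes (3.46%). A match is a description of the letters and shows no binding. Ifit1, an antiviral RNA-binding protein with a pair of matches, was at 2.39, 2.40, 3.52 and 3.11 CPM in sedentary mice and 1.31, 1.61, 2.17 and 1.95 CPM at 1 wk. The groups did not overlap (−0.70 ± 0.22). Rsad2, the antiviral enzyme viperin, was at 17.6, 14.5, 17.5 and 17 CPM and 11.5, 10.9, 13.8 and 11.2 CPM, again without overlap (−0.49 ± 0.17), and Oasl2, of the oligoadenylate synthetase family, at 4.62 to 6.84 CPM against 2.92 to 4.31 CPM (−0.59 ± 0.21). Ifit3 (−0.33 ± 0.17) and Gbp7 (−0.49 ± 0.27), named here for their windows, overlapped between the groups. The receptors and signal transducers upstream of this set had a median of −0.09, or −0.05 without the 2nd 1 wk library and −0.06 without the 4th sedentary one, and 0 of 14 genes at an unadjusted p under 0.05, the smallest p-values being those of Irf9 (−0.20 ± 0.13), Tyk2 (0.18 ± 0.12) and Irf1 (−0.25 ± 0.18).

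**Figure D4:**
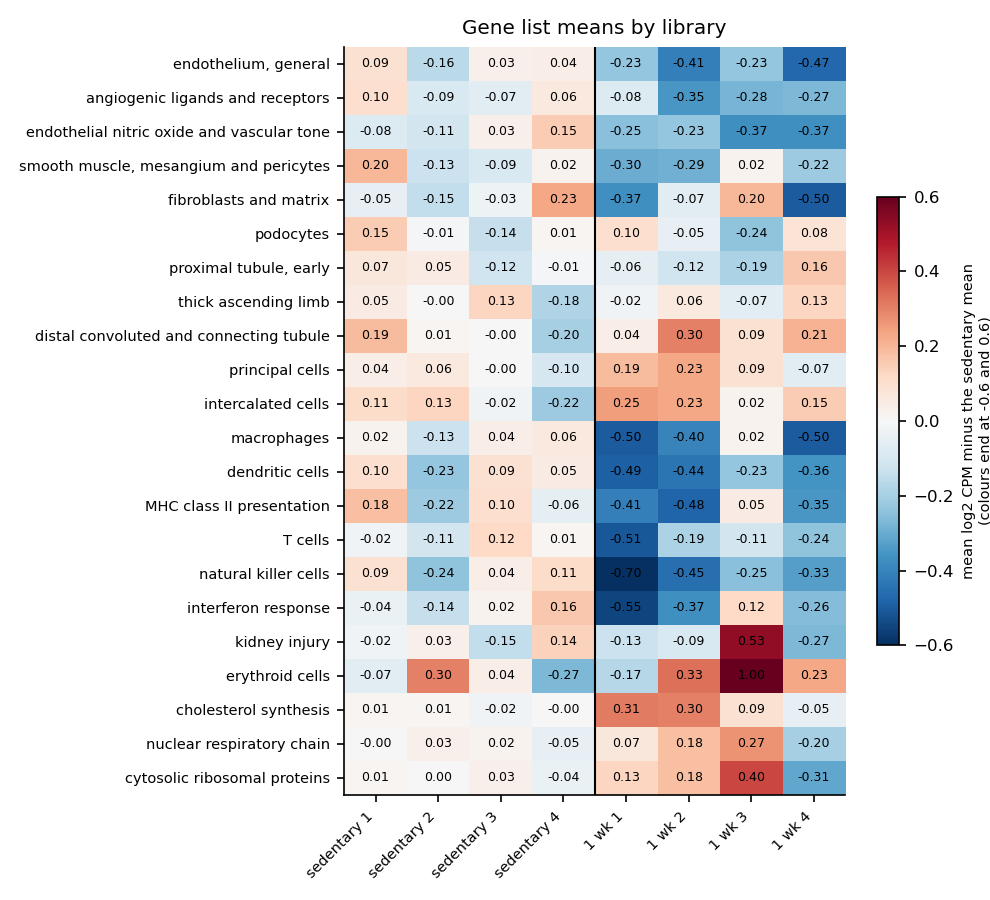
Mean log2 CPM of 22 gene lists (rows) in each of the 8 libraries (columns), relative to the mean of the sedentary libraries, with the value printed in each cell. The endothelial row is below −0.2 in all 4 libraries at 1 wk, whereas in the macrophage and interferon rows the 3rd 1 wk library is at 0.02 and 0.12.

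The 3rd 1 wk library differed in other respects. Havcr1, the injury marker KIM-1 of the proximal tubule, was at 1.83, 3.09, 3.16 and 5.67 CPM in sedentary mice and at 2.15, 3.30, 10.7 and 3.12 CPM at 1 wk. The 3rd library alone was above the sedentary range, so that the log2 fold change of 0.48 ± 0.66 became −0.26 without it. Lcn2, a marker of distal tubule injury, was at 1.41 to 2.40 CPM in sedentary mice and at 2.13, 2.04, 5.31 and 1.27 CPM at 1 wk, with 0.42 ± 0.41, or −0.14 without that library. The mean of the injury list was 0.53 in that library and −0.27 to −0.09 in the other 3. The erythroid list mean was 1.00 there, against −0.17 to 0.33 in the other 3. In this list 7 of 8 genes were positive, and the median of 0.56 was 0.13 without the 3rd library. Without the 1st 1 wk library the erythroid median was 0.78, with 5 of 8 genes higher at an unadjusted p under 0.05 rather than 0. At 2 wk that median was 1.11. The ribosomal protein list was at 0.40 in the 3rd and −0.31 in the 4th library. The part of these differences in the results above was not tested, beyond the values given without the library.

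Clu, which encodes the secreted chaperone clusterin, was the injury list gene of smallest p. Its levels were 327, 279, 270 and 189 CPM in sedentary mice and 329, 453, 459 and 357 CPM at 1 wk. The groups touched without overlapping (0.58 ± 0.20). Krt18 was at 0.34 ± 0.21 and Vcam1, an adhesion molecule of activated endothelium and tubules, at −0.43 ± 0.18. Of the 16 genes of the list, 6 were negative and the median was 0.12, or −0.08 without the 3rd 1 wk library and 0.06 without the 3rd or the 4th sedentary one. Ren1, renin, was at 59.5 to 100 CPM and 50.3 to 98.2 CPM, with 0.02 ± 0.30, and this direction changed with single libraries and with the replicate block.

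Positive log2 fold changes were found in 13 of 16 genes of the distal convoluted and connecting tubule (median 0.23), in the principal cell list in 9 of 12 (0.14) and in the intercalated cell list in 11 of 14 (0.17). Early proximal tubule genes had a median of −0.00, late ones −0.08 and thick ascending limb genes 0.03. At an unadjusted p under 0.05, 1 of 16, 2 of 12 and 3 of 14 genes of the first 3 lists were higher, against 2.33% of all genes, and none was lower. Whether counts this small differ from that share was not tested. The median of the distal convoluted list was 0.37 without the 1st sedentary library, 0.15 without the 4th and 0.14 without the 4th 1 wk library, and its number of higher genes was between 0 and 5 when single libraries were left out. The principal cell median was 0.05 without the 2nd 1 wk library and 0.21 without the 4th, and none of its genes had an unadjusted p under 0.05 without the 2nd. Without the 4th sedentary library the intercalated median was 0.10 and none of its genes had an unadjusted p under 0.05.

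Slc12a3, the thiazide-sensitive sodium chloride cotransporter, was at 490, 392, 410 and 324 CPM in sedentary mice and 450, 554, 416 and 572 CPM at 1 wk. The groups overlapped, and the log2 fold change was 0.30 ± 0.14 (unadjusted p = 0.0378 by edgeR), against 0.49 at 2 wk. Scnn1g, the gamma subunit of the epithelial sodium channel, was at 32.9, 31.6, 33.0 and 26.7 CPM and at 35.7, 45.3, 38.4 and 36.6 CPM, without overlap (0.33 ± 0.12). Its partner Scnn1a was at 0.24 ± 0.12 with overlap, and Scnn1b at 0.21 ± 0.14. Foxi1, the transcription factor that specifies intercalated cells, was at 17.2 to 20.5 CPM against 21.1 to 25.0 CPM (0.31 ± 0.14), with the ammonia channel gene Rhbg (0.32 ± 0.14) and Car15 (0.34 ± 0.15) next to it. At 2 wk these 3 lists had medians of 0.37, 0.36 and 0.36. The proximal exchanger gene Slc9a3 (0.12 ± 0.15) and the loop cotransporter gene Slc12a1 (−0.18 ± 0.21) differed by less than 2 SE.

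As a check on how the cortex was cut, the medullary urea transporter gene Slc14a2 was at 38.6 to 49.0 CPM in sedentary mice and 26.9 to 37.6 CPM at 1 wk. The groups did not overlap, but edgeR's unadjusted p was 0.611, and the 2 wk libraries, which share the fit, ran from 0.533 to 58.1 CPM. In a list of 12 medullary genes that was added after these values had been seen, 6 were negative, none had an unadjusted p under 0.05 and the median was 0.03. Aqp2, the water channel of the collecting duct, was at 151 to 200 and 126 to 220 CPM.

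Cells make cholesterol from acetyl-CoA by a chain of enzymes that are induced together by the factor SREBP2 when sterols are low. Of 24 genes, 21 were positive with a median of 0.15, and 7 were higher at an unadjusted p under 0.05 against 2.33% of all genes. Among them were Lss, Sqle, Fdps, Fdft1, Mvd and Insig1. List means were 0.31, 0.30, 0.09 and −0.05 at 1 wk and −0.02 to 0.01 in sedentary libraries, so the 4th 1 wk library was the lowest of all 8. Without it 13 genes had an unadjusted p under 0.05 and the median was 0.24, whereas the number was 2 without the 1st and 4 without the 2nd 1 wk library.

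Lss, the synthase that closes the sterol ring, was at 24.6, 27.2, 20.7 and 23.6 CPM in sedentary mice and 35.6, 29.1, 26.8 and 26.4 CPM at 1 wk. The groups overlapped narrowly (0.30 ± 0.10). Sqle, squalene epoxidase, was at 80.1 to 94.0 CPM against 90.2 to 122 CPM (0.27 ± 0.10), and Fdps, farnesyl diphosphate synthase, at 9.81 to 13.8 CPM against 10.1 to 19.8 CPM (0.50 ± 0.18). Of the early enzymes, Hmgcs1 was at 335, 397, 377 and 338 CPM and 418, 351, 349 and 449 CPM (0.12 ± 0.10). Medians were 0.09 at 24 h and 0.20 at 2 wk. Fatty acid synthesis genes had a median of 0.04 with none at an unadjusted p under 0.05, led by Scd2 (0.21 ± 0.10), Srebf1 (0.25 ± 0.13) and Fasn (0.30 ± 0.16).

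The sterol regulatory element, searched as ATCACNCCAC on both strands, was found in 0 of the 16 cholesterol genes with a window and in 0.226% of all genes, which says only that these letters are not in those windows. After this result the CCAAT box was searched as well, and was found on either strand in all 16 against 37.5% of all genes. The windows of Lss (chr10:76531523-76531567, plus strand) and Insig1 (chr5:28071176-28071220, plus), both among the 7 genes above, are shown with the box in capitals, read here on the opposite strand, under the same RefSeq build.
Lss: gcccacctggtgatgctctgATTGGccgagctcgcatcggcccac
Insig1: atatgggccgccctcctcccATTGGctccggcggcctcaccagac

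**Figure D5:**
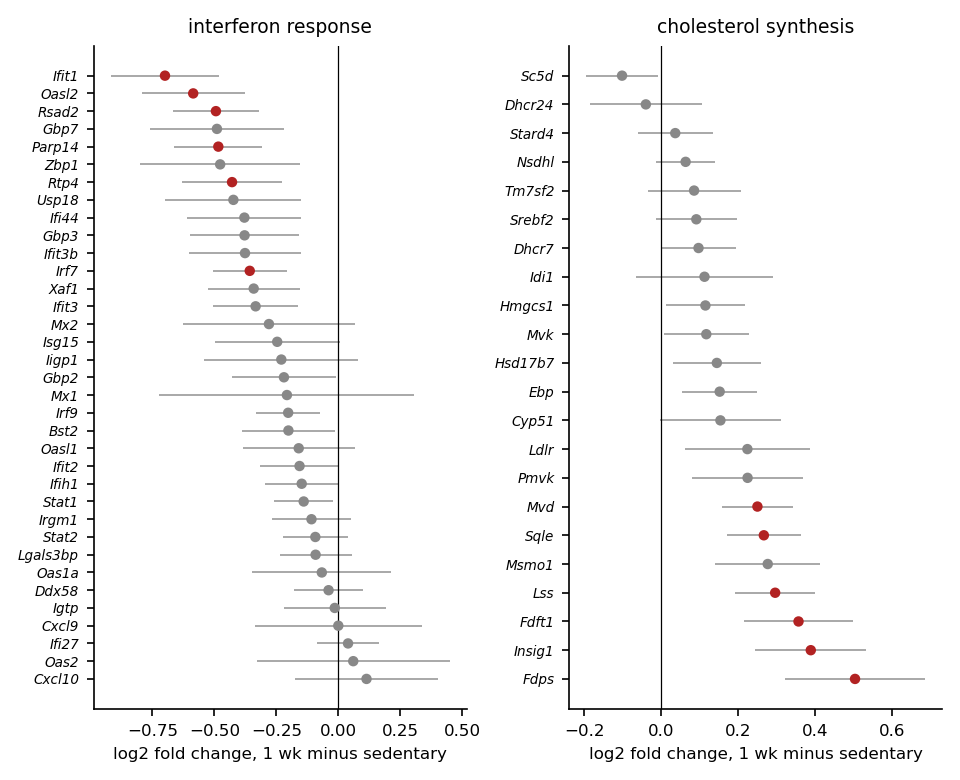
Log2 fold change (1 wk minus sedentary, horizontal axis) with its SE for the 35 interferon response genes (left) and cholesterol synthesis genes (right, 22 shown), sorted by value, red where the unadjusted p was under 0.05 by edgeR. Of the interferon genes 32 lie below 0, and most of the cholesterol genes lie above it.

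Fuel genes gave few differences. Cyp4a14, a fatty acid hydroxylase and target of the lipid sensor PPAR-alpha, was at 22.0, 22.4, 39.3 and 27.7 CPM in sedentary mice and 65.8, 240, 128 and 44.9 CPM at 1 wk. The groups did not overlap, but the spread at 1 wk was large (2.11 ± 0.79). It was at 28.7 to 306 CPM at 24 h and 33.5 to 361 CPM at 2 wk. Ucp2, a mitochondrial carrier, was at 85.9 to 109 against 112 to 178 CPM (0.58 ± 0.21), and Angptl4, an inhibitor of lipoprotein lipase, at 0.45 ± 0.20. Enzymes of beta oxidation did not differ by more than 2 SE, as with Acadm (0.04 ± 0.10), Acadl (0.03 ± 0.08) and Cpt1a (−0.12 ± 0.16), and the list's median was 0.04. The number of its genes higher at an unadjusted p under 0.05 was 4, but 0 without the 2nd, 1 without the 3rd, 2 without the 1st and 7 without the 4th 1 wk library, and 2 without the 1st or the 2nd sedentary one.

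The gluconeogenic genes Pck1 and G6pc, which act at the start and the end of glucose output, had log2 fold changes of opposite sign. Pck1 was at 1290, 1350, 1210 and 1530 CPM in sedentary mice and 1970, 1880, 1630 and 2280 CPM at 1 wk, without overlap (0.53 ± 0.18). G6pc was at 553, 543, 712 and 628 CPM and 474, 399, 497 and 501 CPM, also without overlap (−0.38 ± 0.17). Both kept these signs at 24 h (0.27 and −0.68) and at 2 wk (0.56 and −0.62). Ldhb came next in this list (0.15 ± 0.09), whose median was 0.12, or 0.07 without the 1st 1 wk library.

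Mitochondrially encoded transcripts took 3.40 ± 0.59% of counts at 1 wk and 3.91 ± 0.41% in sedentary mice (SD, n = 4 each). The difference had p = 0.257 by an exact permutation test (two-sided, 70 arrangements). Of the 13 mitochondrially encoded genes listed, 7 passed the filter on low counts. The others, among them mt-Co2, mt-Co3 and mt-Atp6, held few counts in the deposited table and so add little to this share. All 7 tested genes were negative with a median of −0.16, against −0.77 at 24 h, and mt-Co1 had the smallest p (−0.23 ± 0.13). The median was −0.05 without the 1st 1 wk library and −0.30 without the 2nd. Among nuclear genes of the respiratory chain, 22 of 24 were positive (median 0.10). The median was 0.04 without the 3rd 1 wk library, and 0.19 with 9 genes at an unadjusted p under 0.05 without the 4th. Its list mean was 0.07, 0.18, 0.27 and −0.20 at 1 wk, so the 4th library was below the sedentary range. Each of the 76 ribosomal protein genes was positive, with a median of 0.11, none with an unadjusted p under 0.05, while without the 4th 1 wk library 44 had one and without the 3rd the median was 0.02.

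The glutathione synthesis gene Gclc was at 204, 211, 305 and 280 CPM in sedentary mice and 273, 448, 399 and 445 CPM at 1 wk. Only the 1st 1 wk library lay within the sedentary range (0.65 ± 0.21). Heat shock genes had a median of 0.20 (0.12 without the 3rd 1 wk library) against 0.53 at 24 h, and the chaperone genes Cryab (0.40 ± 0.22) and Hsp90ab1 (0.28 ± 0.15) did not overlap between the groups. Creld2, of the endoplasmic reticulum, was at 41.4 to 51.7 against 58.5 to 66.4 CPM (0.40 ± 0.27). The glucocorticoid-induced genes Fkbp5 (0.45 ± 0.23) and Mt2 (0.36 ± 0.16) and the hypoxia-induced vasodilator gene Adm (0.35 ± 0.17) overlapped between the groups. Of the clock genes, Ciart was at 1.92, 2.36, 2.04 and 3.73 CPM and 5.37, 4.65, 2.86 and 5.08 CPM (0.84 ± 0.27), and Dbp at 0.32 ± 0.19, the median of the list being −0.03. The labels do not state the time of day at which tissue was taken. Cell cycle genes had a median of −0.02 with none at an unadjusted p under 0.05.

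Low transcripts outside the naming rule also lay at the top of the ranking by p. Rpl28-ps1 (0.89 ± 0.17), Gm11273 (0.89 ± 0.19) and Gm6807 (1.05 ± 0.22) were singled out after their values were seen. The first and the last are annotated as processed pseudogenes, whose reads may be shared with parent genes, so their values are uncertain. Ltk, a receptor tyrosine kinase gene singled out in the same way, was at 0.0843 to 0.156 CPM in sedentary mice and 0.288 to 0.423 CPM at 1 wk (1.77 ± 0.38).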

How the data were processed

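RNA of kidney cortex was prepared with a polyA-selected stranded kit per the labels' protocols, and the authors deposited whole-number counts per gene. The submitters' processing notes name FastQC 0.10.1, HTSeq 0.10.0 and the builds mm10 and GRCm38. How reads shared between genes were treated is not stated there. In the deposited table, 8 columns matched no sample and were not used.

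Counts were filtered by group with edgeR 4.0.16, scaled by TMM and fitted with all 16 libraries in a robust quasi-likelihood model, with Benjamini-Hochberg adjustment at 0.05. R 4.3.3, limma 3.58.1 (voom) and DESeq2 1.42.0 were used, and the scripts were tested on simulated data. CPM are TMM-scaled, and a list's library value is its mean log2 CPM (prior count 2) computed from the deposited counts. Symbols and positions follow GENCODE M21 (GRCm38).

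Members and lists were chosen with earlier results of these data known. Named are the 10 genes of smallest p in each direction whose log2 CPM averaged 0 or more and a proper symbol, the 3 of smallest p in each list described, and 12 set genes. Other genes named were chosen after their values were seen. Library numbers were not treated as pairs, since same-numbered libraries correlated at −0.07 to 0.15. Alternatives were RLE scaling, other filters, DESeq2, voom, the replicate block, the 8 libraries alone and each library left out. Some genes are not reported here.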

Additional observations from a re-analysis of the deposited data

Results flagged for a closer look

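In 166 groups of 4 libraries tested for a library far from the other 3 by Dixon's 95% criterion, 7 stood out. Chance gives about 1 in 20, so this number is no more than chance would give. In sedentary mice the 2nd library had the highest Myc level (5.65 CPM), the lowest Fgl2 level (1.73 CPM) and the lowest dendritic cell list mean (−0.23), and the 1st had the largest total count (56957702). At 1 wk the 2nd library had the highest Fgl2 level (1.32 CPM), and the 3rd had the highest Havcr1 level (10.7 CPM) and the highest MHC class I list mean (0.12).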

How the results depend on the processing

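The number of genes past an adjusted p of 0.05 was 0 by edgeR, 15 by DESeq2, 6 by voom and 0 to 1 with single libraries left out. Genes lower at an unadjusted p under 0.05 numbered 1254 by voom and 337 to 881 with single libraries left out, and those higher 1107 and 268 to 908. Genes without overlap numbered 488 to 1199 (lower) and 400 to 1205 (higher), where fewer libraries make overlap rarer by construction. Against 24 h, DESeq2 called 59 and voom 17, and against 2 wk 4 and 1. With the replicate block edgeR called 0 genes, with 651 lower and 421 higher at an unadjusted p under 0.05, and not every library correlated best with its own number. Directions reversed in 7 genes and the cause was not tested: Ren1 (−0.0209 with the replicate block, −0.14 to 0.20 with single libraries left out), Havcr1 (−0.26 to 0.84), Lcn2 (−0.14 to 0.66), Reln (−0.19 to 0.0243), Ighg2b (−0.00862 by voom, −0.83 to 1.48), Csf3r (−0.019 to 0.85) and S100a9 (−0.23 to 0.50). Of the other log2 fold changes, 2374 kept direction and side of the threshold and 14 passed it only under an alternative. Of the list medians, 722 moved by less than the spread between libraries and 12 by more. Genes under about 1 CPM rest on few reads and have wide errors.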

Other observations

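Gene groups not described above gave the following values at 1 wk against sedentary. Complement genes were negative in 14 of 19 cases (median −0.20), and chemokine, cytokine and adhesion genes in 12 of 14 (median −0.21). Genes of renin, angiotensin and aldosterone were negative in 10 of 14 cases (median −0.06, or −0.15 and −0.11 without the 1st and the 2nd 1 wk library, −0.10 without the 1st sedentary and −0.04 without the 3rd 1 wk one) and none had an unadjusted p under 0.05 by edgeR, against 4 lower and 1 higher by voom. Plasma cell genes had a median of 0.11, which was −0.45 without the 3rd and −0.01 without the 2nd 1 wk library, and 0.06, 0.01 and 0.34 without the 1st, the 2nd and the 3rd sedentary library. Sodium transport genes had 15 of 18 positive with a median of 0.11, or 0.02 by voom, 0.06 without the 4th 1 wk library and 0.07 without the 4th sedentary one.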
